A study of Mus musculus with 9 samples.

Results

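Day 5 of differentiation was the last time sampled in a C2C12 experiment that set a Cry1 knockdown and a Cry2 knockdown against a control, and the 3 day 5 libraries of the 9 in all were chosen by their labels. C2C12 is a mouse myoblast line that fuses into contractile myotubes after the growth medium is replaced by one with horse serum, insulin, transferrin and selenium. PolyA RNA was sequenced on a HiSeq2500 from the Cry1 knockdown, the Cry2 knockdown and the control at days 0, 3 and 5, with 1 library for each genotype and day. All groups share the cell line and the media, and the labels do not say by what means the knockdowns were made. With 1 library per genotype at day 5, no gene has a replicate check and no test was made. Each knockdown is described by its ratio to the control library, and both ratios share that 1 control.

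Cry1 and Cry2 encode cryptochromes, which join the PER proteins in the complex that represses CLOCK and BMAL1 and so closes the feedback loop of the circadian clock. CLOCK and BMAL1 bind E-boxes in the promoters of their targets, which include Per and Cry genes, Dbp and Nr1d1. In muscle cells differentiation runs from MyoD and myogenin to cell fusion and then to sarcomere assembly, in which embryonic and neonatal myosins are made before the adult ones. Myoblasts and myotubes also secrete collagens, proteoglycans and insulin-like growth factors.

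Total counts were 6029574 in the Cry1 knockdown, 5613587 in the Cry2 knockdown and 5666697 in the control, and mitochondrially encoded genes took 1.92%, 2.07% and 2.12% of them. A count of 0 in these libraries allows up to 3 counts, which is 0.530, 0.567 and 0.555 CPM (counts relative to library size, scaled between libraries by the TMM method). All 12 myotube markers were above 5 CPM, and their summed level was 29369 CPM in Cry1 knockdown cells, 30098 CPM in Cry2 knockdown cells and 27613 CPM in control cells. The 4 adipocyte markers summed to 0.883, 2.65 and 2.04 CPM, with Adipoq and Lep at 0 in all 3 libraries. Osteoblast markers (3 genes), endothelial and blood cell markers (4) and neuron and Schwann cell markers (4) stayed within 2.41 CPM in sum in every library, and Rbfox3 and Sox10 were at 0 in all 3. The 3 smooth muscle markers summed to 162, 160 and 151 CPM, of which Smtn took 162, 156 and 150 CPM. Myh11 had 1, 2 and 1 counts and Cnn1 1, 20 and 5 counts in Cry1 knockdown, Cry2 knockdown and control cells. The 4 fibroblast markers summed to 69.7 CPM in Cry1 knockdown cells, 65.6 CPM in Cry2 knockdown cells and 143 CPM in control cells. Dpt, which encodes dermatopontin, had 39.6, 54.4 and 121 CPM. The control was highest in the sum and in Dpt, while the knockdowns stood in opposite order in them. Pdgfra had 22.8, 9.07 and 19.1 CPM and Col14a1 7.42, 2.08 and 3.52 CPM, both highest in the Cry1 knockdown and lowest in the Cry2 knockdown, and Thy1 was at 0 in all 3. The 5 markers of myoblasts or reserve cells, the unfused cells of a myotube culture, summed to 221, 222 and 264 CPM. Of these Cd34 had 117, 113 and 167 CPM and Myf5 56.7, 67.8 and 60.2 CPM, while Pax7 (8.65, 6.99 and 4.07 CPM), Mki67 (26, 23.1 and 21.7 CPM) and Id1 (13.2, 11.9 and 11.7 CPM) lay above the control in both knockdowns. In bulk RNA, fewer cells of a type and less RNA per cell cannot be told apart.

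Of 10620 genes with a mean of at least 5 CPM over the 3 libraries, called measured here, 107 (1.01%) were 2-fold or more higher in the Cry1 knockdown and 116 (1.09%) were 2-fold or more lower. In the Cry2 knockdown 100 (0.942%) were that much higher and 154 (1.45%) that much lower. The mean includes the knockdown libraries, so a gene can pass this filter through the 1 library where it is high, as Pvalb did in the Cry1 knockdown. These counts use log2 ratios with a prior count of 1, and such log2 ratios are the ones given below. The median log2 ratio of all measured genes was 0.02 in each knockdown, and 5% to 95% of genes lay from -0.56 to 0.53 in the Cry1 knockdown and from -0.59 to 0.51 in the Cry2 knockdown. Plain ratios of normalised CPM are given with a 95% exact binomial counting interval. PCR reads without molecular identifiers are not independent molecules, so these intervals and the floors above cover counting error only, and not the difference between cultures.

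**Figure D1:**
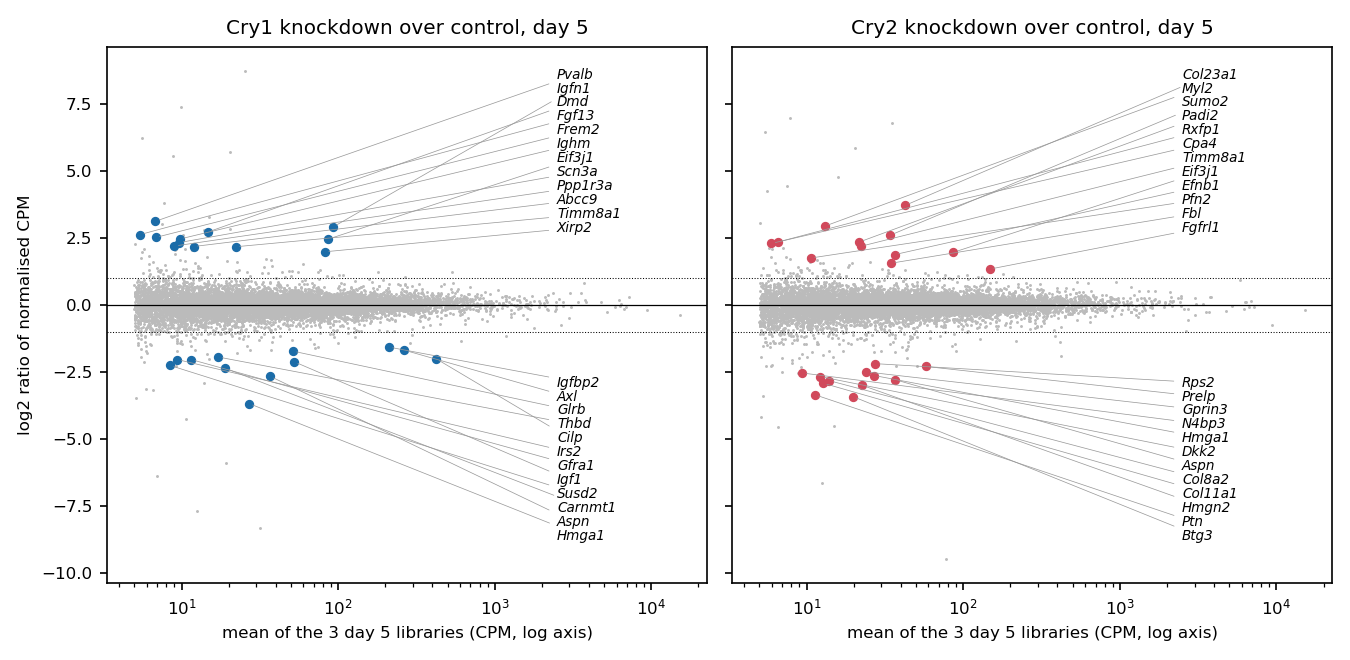
Log2 ratio of each measured gene (grey, 10620 genes) to the control library against its mean level in the 3 day 5 libraries (CPM, log axis), for the Cry1 knockdown (left) and the Cry2 knockdown (right). Dotted lines mark 2-fold, coloured points are the 12 genes named in each direction, and the grey points farthest out are unnamed gene models and pseudogenes. The bulk of genes lies between the dotted lines in both panels.

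The knockdowns themselves were seen in the RNA of the genes they target. Cry1 (ENSMUSG00000020038, chr10:85131700-85185064 of mm10) had 8.12 CPM in Cry1 knockdown cells, 22.9 CPM in Cry2 knockdown cells and 17.4 CPM in control cells, which is 0.467 times the control (95% counting interval 0.321 to 0.671) in its own knockdown. Cry2 (ENSMUSG00000068742, chr2:92403646-92434043) had 16.6 CPM in Cry2 knockdown cells, 68 CPM in Cry1 knockdown cells and 48.9 CPM in control cells. It stood at 0.340 times the control (95% counting interval 0.264 to 0.435) in its own knockdown, and in the Cry1 knockdown at 1.39 times the control (95% counting interval 1.19 to 1.63). Cry1 in the Cry2 knockdown had a ratio of 1.31 (0.995 to 1.74). Cyclin D1, Tmem176b and Bclaf1 stand in the title of the series as well. Ccnd1, which encodes cyclin D1, had a ratio of 1.18 (0.956 to 1.46) in the Cry1 knockdown and 0.759 (0.596 to 0.966) in the Cry2 knockdown, neither of them past 2-fold. Exons of LTO1 overlap 23.4% of its exon bases, and the kit named in the labels keeps no strand. Tmem176b, a membrane protein gene, had 6.0 CPM in Cry1 knockdown cells, 0.378 CPM in Cry2 knockdown cells and 1.11 CPM in control cells. The Cry2 knockdown value is 2 counts and the control value 6, so the ratio of 0.340 (0.0336 to 1.9) there includes equality, while the Cry1 knockdown had 34 counts. Bclaf1, a nuclear RNA-associated protein gene, differed little, with ratios of 1.1 (0.997 to 1.21) and 0.959 (0.865 to 1.06) in the Cry1 and Cry2 knockdowns.

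The 12 named genes ranked highest over the control in the Cry1 knockdown, by the bound of the counting interval nearest to 1, had several roles. Those known from muscle cells come first, with Trdn from the calcium handling list beside them. Igfn1 (ENSMUSG00000051985, chr1:135953578-136006342), a Z-disc protein of the immunoglobulin and fibronectin type, had 198 CPM in Cry1 knockdown cells, 55 CPM in Cry2 knockdown cells and 26.1 CPM in control cells. It was at 7.58 times the control (95% counting interval 6.35 to 9.09) in the Cry1 knockdown and at 2.11 times the control (95% counting interval 1.72 to 2.59) in the Cry2 knockdown. Xirp2, an actin-binding protein of the Z-disc and the myotendinous junction, had 155 CPM in Cry1 knockdown cells, 52.2 CPM in Cry2 knockdown cells and 39.1 CPM in control cells, with 3.97 times the control (95% counting interval 3.41 to 4.63) in the Cry1 knockdown. Dmd (ENSMUSG00000045103, chrX:82948870-85206141), which encodes dystrophin, the link between the cytoskeleton and the membrane, had 33.9 CPM in Cry1 knockdown cells, 5.1 CPM in Cry2 knockdown cells and 5.0 CPM in control cells. Its level was alike in the Cry2 knockdown and the control, with a ratio of 1.02 (0.576 to 1.81), and it was 6.78 times the control (95% counting interval 4.52 to 10.6) in the Cry1 knockdown. Pvalb, the calcium buffer parvalbumin of fast fibres, had 15.9 CPM in Cry1 knockdown cells, 2.83 CPM in Cry2 knockdown cells and 1.67 CPM in control cells, on 90, 15 and 9 counts. Trdn, which encodes triadin of the calcium release complex, had 61.6 CPM in Cry1 knockdown cells, 29.7 CPM in Cry2 knockdown cells and 22.2 CPM in control cells. Both were highest in the Cry1 knockdown, with ratios to the control of 9.54 (4.81 to 21.5) for Pvalb and 2.77 (2.25 to 3.44) for Trdn.

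Channel subunits and other genes made up the rest of the 12. Over the list of potassium, sodium and chloride channels, 6 of 12 measured genes were above the control in the Cry1 knockdown and 6 below it. The median was -0.02, and 1 gene was higher by 2-fold, Scn3a, against 1.01% of all measured genes. Scn3a, a sodium channel subunit, had 21.2 CPM in Cry1 knockdown cells, 3.78 CPM in Cry2 knockdown cells and 4.07 CPM in control cells. Fgf13, an intracellular member of the fibroblast growth factor family that binds sodium channels, had 12.4 CPM in Cry1 knockdown cells, 2.08 CPM in Cry2 knockdown cells and 1.85 CPM in control cells. Abcc9, the regulatory subunit of the ATP-sensitive potassium channel, had 26.7 CPM in Cry1 knockdown cells, 3.4 CPM in Cry2 knockdown cells and 5.74 CPM in control cells. In each of these 3 the Cry1 knockdown library was the highest, and the other two libraries lay below 6 CPM. Ppp1r3a, which brings protein phosphatase 1 to glycogen in muscle, had 17.7 CPM in Cry1 knockdown cells, 5.67 CPM in Cry2 knockdown cells and 3.7 CPM in control cells. Frem2, a basement membrane protein gene, had 16.8 CPM in Cry1 knockdown cells, 0.945 CPM in Cry2 knockdown cells and 2.78 CPM in control cells, and Ighm, the constant region of the immunoglobulin mu chain, had 21.2 CPM in Cry1 knockdown cells, 4.35 CPM in Cry2 knockdown cells and 3.7 CPM in control cells. The markers of blood cells were near 0 in the same libraries, with Ptprc at 1, 0 and 0 counts in the Cry1 knockdown, the Cry2 knockdown and the control. The 2 remaining genes of the 12, Eif3j1 and Timm8a1, were higher in both knockdowns and share sequence with other loci, as given further on.

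**Figure D2:**
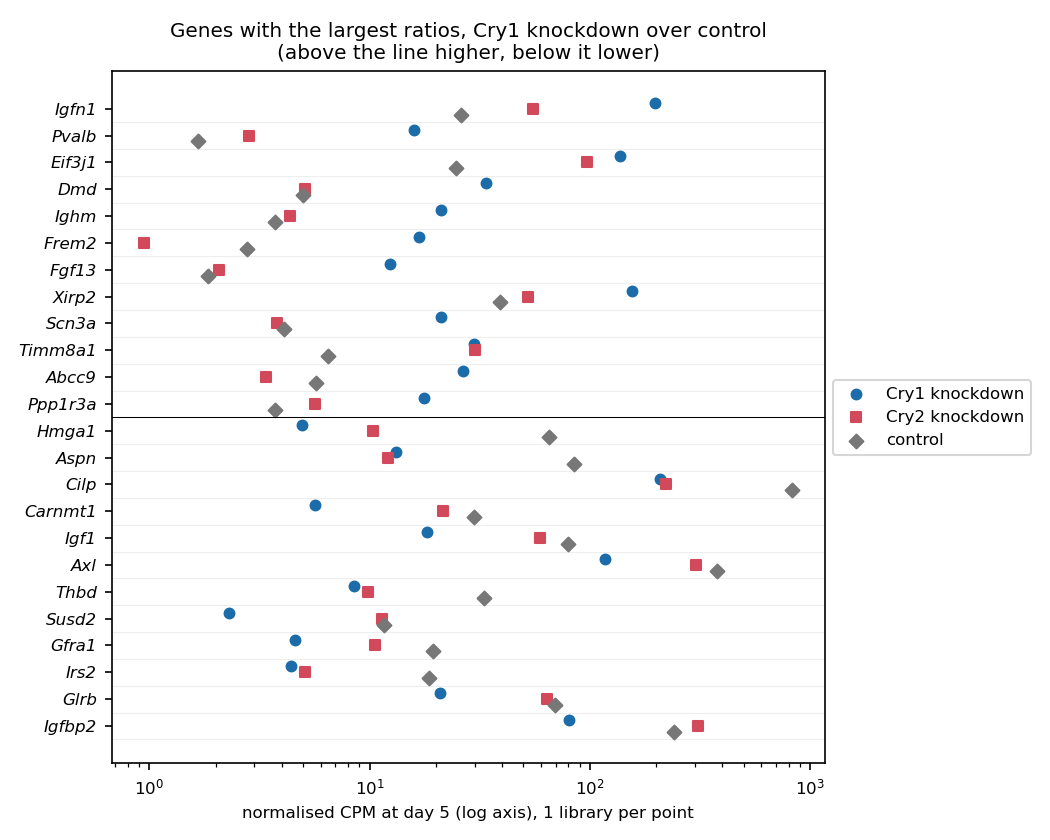
Normalised CPM (log axis) in the 3 day 5 libraries of the 12 named genes above the control (upper block) and the 12 below it (lower block) in the Cry1 knockdown, 1 library per point. Genes were ranked by the bound of the counting interval nearest to 1. For Dmd, Fgf13 and Scn3a the Cry2 knockdown and the control lie close together, while for Aspn, Cilp, Thbd and Irs2 both knockdowns lie below the control.

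Gene lists of the sarcomere were higher to a smaller degree in the Cry1 knockdown. Of 29 measured genes of the thick filament, M-band and Z-disc, 23 were above the control, with a median log2 ratio of 0.24, against 0.02 for all measured genes. The 4 past 2-fold, all higher, were Igfn1, Xirp2, Mybpc2 and Myoz1, against 1.01% of all measured genes higher by 2-fold. Mybpc2, the fast isoform of myosin-binding protein C, had 60.9 CPM in Cry1 knockdown cells, 32.3 CPM in Cry2 knockdown cells and 18.7 CPM in control cells, and Myoz1, a Z-disc binding partner of calcineurin, had 10.6 CPM in Cry1 knockdown cells, 6.43 CPM in Cry2 knockdown cells and 4.26 CPM in control cells. In the Cry2 knockdown the same list had a median of 0.11 and 1 gene higher by 2-fold, Igfn1, against 0.942% of all measured genes. Of the 22 genes of calcium handling, 15 were above the control in the Cry1 knockdown, with a median of 0.28. Pvalb and Trdn were higher by 2-fold, against 1.01% of all measured genes. The median was 0.02 in the Cry2 knockdown, where Mrln, which encodes a small inhibitor of the calcium pump, had 7.37 CPM against 3.33 CPM in control cells.

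The myosin heavy chains, the motors of the thick filament, had a median log2 ratio of 0.61 in the Cry1 knockdown, with 7 of 8 above the control. None of these chains was past 2-fold there, against 1.01% higher and 1.09% lower among all measured genes. Their median was 0.10 in the Cry2 knockdown, with 2 genes lower by 2-fold, against 1.45% of all measured genes. Embryonic Myh3 had 6501 CPM in Cry1 knockdown cells, 7459 CPM in Cry2 knockdown cells and 6811 CPM in control cells, a narrow span. Neonatal Myh8 had 503 CPM in Cry1 knockdown cells, 197 CPM in Cry2 knockdown cells and 291 CPM in control cells, so that the control lay between the knockdowns. Fast Myh4 had 291 CPM in Cry1 knockdown cells, 179.9 CPM in Cry2 knockdown cells and 168 CPM in control cells, and fast Myh1 had 706 CPM in Cry1 knockdown cells, 532 CPM in Cry2 knockdown cells and 495 CPM in control cells. The order was different for the slow and cardiac chains. Myh7 had 94.1 CPM in Cry2 knockdown cells, 319 CPM in Cry1 knockdown cells and 239 CPM in control cells, which is 0.393 times the control (95% counting interval 0.354 to 0.436) in the Cry2 knockdown and 1.33 times in the Cry1 knockdown. Myh6 had 21.9 CPM in Cry2 knockdown cells, 61.3 CPM in Cry1 knockdown cells and 53.3 CPM in control cells, with 0.411 times the control (95% counting interval 0.329 to 0.512) in the Cry2 knockdown. These chains share between 18.9% and 29.8% of their 50-base words with other genes, except Myh3 (4.81%) and Myh7b (0), so reads can be split among them. Myh7b, which shares none, had 31.8 CPM in Cry1 knockdown cells, 18.5 CPM in Cry2 knockdown cells and 17 CPM in control cells.

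The 12 named genes ranked lowest against the control in the Cry1 knockdown, by the bound of the counting interval nearest to 1, included Hmga1 and Carnmt1. These 2 share sequence with other loci, as given further on. The others follow, with members of gene lists beside them. Aspn (ENSMUSG00000021388, chr13:49544443-49567565), which encodes asporin, a small leucine-rich proteoglycan, had 13.2 CPM in Cry1 knockdown cells, 12.1 CPM in Cry2 knockdown cells and 84.8 CPM in control cells. It was at 0.156 times the control (95% counting interval 0.121 to 0.200) in the Cry1 knockdown and at 0.143 times the control (95% counting interval 0.108 to 0.186) in the Cry2 knockdown. Cilp, a cartilage matrix protein gene, had 207 CPM in Cry1 knockdown cells, 223 CPM in Cry2 knockdown cells and 832 CPM in control cells, again with both knockdowns below their shared control. Dcn, which encodes the collagen-binding proteoglycan decorin, had 320.3 CPM in Cry1 knockdown cells, 704 CPM in Cry2 knockdown cells and 814 CPM in control cells, and Lum, its relative lumican, had 5.12 CPM in Cry1 knockdown cells, 8.88 CPM in Cry2 knockdown cells and 14.1 CPM in control cells. Thbs2, a matricellular thrombospondin, had 698 CPM in Cry1 knockdown cells, 1293 CPM in Cry2 knockdown cells and 1569 CPM in control cells. In Dcn, Lum and Thbs2 the Cry1 knockdown lay lowest and the Cry2 knockdown between it and the control. Of 23 measured matrix proteoglycans and glycoproteins, 4 were lower by 2-fold in the Cry1 knockdown, against 1.09% of all measured genes, and none higher, and the median was -0.14. In the Cry2 knockdown 2 were lower by 2-fold, against 1.45% of all measured genes. There 17 of the 23 lay below the control and the median was -0.21. Of the 4 fibroblast markers, Dpt lay below the control in the Cry1 knockdown, Pdgfra and Col14a1 above it and Thy1 at 0, and their part in these values was not tested.

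In the insulin-like growth factor axis, 12 of 14 measured genes were below the control in the Cry1 knockdown, with a median of -0.20, and 10 in the Cry2 knockdown, with a median of -0.31. Past 2-fold were 3 in the Cry1 knockdown and 1 in the Cry2 knockdown, all lower, against 1.09% and 1.45% of all measured genes. Igf1 (ENSMUSG00000020053, chr10:87858265-87937042), the ligand that drives myotube growth, had 18.2 CPM in Cry1 knockdown cells, 59.2 CPM in Cry2 knockdown cells and 79.6 CPM in control cells, which is 0.228 times the control (95% counting interval 0.182 to 0.284) in the Cry1 knockdown. Igfbp2, a binding protein that holds the ligands outside the cell, had 80.7 CPM in Cry1 knockdown cells, 310.3 CPM in Cry2 knockdown cells and 241 CPM in control cells. Irs2, the docking protein of the insulin and IGF1 receptors, had 4.41 CPM in Cry1 knockdown cells, 5.1 CPM in Cry2 knockdown cells and 18.7 CPM in control cells, on 25, 27 and 101 counts. Igf1 and Igfbp2 were thus low in the Cry1 knockdown, and Irs2 in both knockdowns. Igfbp5, the binding protein that myoblasts induce on differentiation, had 4300.0 CPM in Cry1 knockdown cells, 8712 CPM in Cry2 knockdown cells and 4584 CPM in control cells, with 1.9 times the control (95% counting interval 1.87 to 1.93) in the Cry2 knockdown, just under 2-fold. The receptors Igf1r, Igf2r and Insr were within 2-fold in both knockdowns, with ratios in the Cry1 knockdown of 0.882, 0.949 and 0.783, and in the Cry2 knockdown of 0.776, 0.744 and 0.838.

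Of the 13 measured genes of smooth muscle and of the YAP coactivator, 12 were below the control in the Cry1 knockdown (median -0.29). Axl, Ccn1 and Ccn2 were lower by 2-fold, against 1.09% of all measured genes. Axl, the receptor tyrosine kinase for GAS6, had 117 CPM in Cry1 knockdown cells, 302 CPM in Cry2 knockdown cells and 377 CPM in control cells. Ccn2, which encodes connective tissue growth factor, had 90.6 CPM in Cry1 knockdown cells, 86.4 CPM in Cry2 knockdown cells and 209 CPM in control cells, and Ccn1 had 200.1 CPM in Cry1 knockdown cells, 250.4 CPM in Cry2 knockdown cells and 434 CPM in control cells. Axl was low in the Cry1 knockdown alone of these 3 libraries, whereas Ccn1 and Ccn2 were lower in both knockdowns. Myl9, the smooth muscle regulatory light chain, had 100.3 CPM in Cry2 knockdown cells, 26.3 CPM in Cry1 knockdown cells and 43.9 CPM in control cells, with 2.29 times the control (95% counting interval 1.96 to 2.68) in the Cry2 knockdown. Other surface proteins low in the Cry1 knockdown were Gfra1, the receptor for glial cell line-derived neurotrophic factor, at 0.236 times the control (95% counting interval 0.147 to 0.366), and Glrb, a glycine receptor subunit, at 0.301 times the control (95% counting interval 0.243 to 0.371). Susd2, a membrane protein gene, was at 0.197 times the control (95% counting interval 0.0993 to 0.361). Thbd, which encodes thrombomodulin, was at 0.256 times the control (95% counting interval 0.182 to 0.353) in the Cry1 knockdown and at 0.297 times the control (95% counting interval 0.213 to 0.406) in the Cry2 knockdown.

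The list whose median stood highest in the Cry1 knockdown, among those with at least 7 measured members, was cholesterol synthesis. Cells make cholesterol from acetyl-CoA through mevalonate and squalene, and SREBP2 turns on the enzymes when sterols are low. Of 23 measured genes, 22 were above the control in the Cry1 knockdown, with a median log2 ratio of 0.68, against 0.02 for all measured genes. Idi1 and Fdps, enzymes between mevalonate and farnesyl diphosphate, were higher by 2-fold, against 1.01% of all measured genes. Fdps had 39 CPM in Cry1 knockdown cells, 24.8 CPM in Cry2 knockdown cells and 18.1 CPM in control cells, and Idi1 had 117 CPM in Cry1 knockdown cells, 79.8 CPM in Cry2 knockdown cells and 56.1 CPM in control cells. Lss, which closes the sterol rings, had 55.4 CPM in Cry1 knockdown cells, 37.4 CPM in Cry2 knockdown cells and 27.8 CPM in control cells. Their ratios in the Cry1 knockdown were 2.15 (1.69 to 2.76) for Fdps, 2.09 (1.82 to 2.41) for Idi1 and 2.0 (1.64 to 2.44) for Lss. Cyp51 and Sc5d, later enzymes of the pathway, stood at 1.8 (1.64 to 1.99) and 1.81 (1.42 to 2.33). Srebf2, which encodes SREBP2, stood at 1.28 (1.21 to 1.36). Dhcr7, the last enzyme of one branch, was the gene below the control, at 0.783 (0.705 to 0.869). In the Cry2 knockdown 19 of the 23 were above the control, with a median of 0.22. None was past 2-fold there, against 0.942% higher and 1.45% lower among all measured genes. At day 3 the medians were 0.43 in the Cry1 knockdown and -0.13 in the Cry2 knockdown, and at day 0 they were -0.13 and -0.13.

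Promoters of this pathway are shown because its members lay on one side of the control in the Cry1 knockdown. The table of RefSeq promoters (GRCm38.p6) held 16 of the 24 genes listed, with 19 promoters. Each window is the 250 bases before the gene start, 5′ to 3′ on the strand of the gene, and capitals mark the CCAAT box, searched as CCAAT on both strands (ATTGG on the strand shown). Of the 19 promoters 16 held it, and each of the 16 genes had at least 1 that did, against 33.8% of all 32851 promoters and 34.8% of the 10452 promoters of measured genes. A sterol element written CACCCCAC, searched on both strands, was in 1 of the 16 genes, Hmgcs1, and in 2.58% of all promoters. The CCAAT box was also in 10 of the 12 clock genes whose promoters are described further on. These matches are a description of the letters in the windows. Hmgcs1 (chr13:119690101-119690350, plus strand), Idi1 (chr13:8885356-8885605, plus), Cyp51 (chr5:4104698-4104947, minus) and Lss (chr10:76531355-76531604, plus) had these windows.
Hmgcs1: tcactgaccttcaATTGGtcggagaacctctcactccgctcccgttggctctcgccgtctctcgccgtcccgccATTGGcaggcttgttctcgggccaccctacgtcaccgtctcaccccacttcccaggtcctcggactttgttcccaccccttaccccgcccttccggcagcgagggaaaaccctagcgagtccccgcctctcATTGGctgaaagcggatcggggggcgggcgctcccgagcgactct
Idi1: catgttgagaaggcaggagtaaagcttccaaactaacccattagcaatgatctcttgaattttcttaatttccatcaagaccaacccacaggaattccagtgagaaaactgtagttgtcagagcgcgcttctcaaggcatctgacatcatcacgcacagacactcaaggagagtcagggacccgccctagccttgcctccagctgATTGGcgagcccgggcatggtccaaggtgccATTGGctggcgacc
Cyp51: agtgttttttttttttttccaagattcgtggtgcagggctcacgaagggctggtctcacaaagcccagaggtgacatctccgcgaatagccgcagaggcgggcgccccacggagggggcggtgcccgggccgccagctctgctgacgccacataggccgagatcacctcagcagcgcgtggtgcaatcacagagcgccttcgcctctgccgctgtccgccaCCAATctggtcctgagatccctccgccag
Lss: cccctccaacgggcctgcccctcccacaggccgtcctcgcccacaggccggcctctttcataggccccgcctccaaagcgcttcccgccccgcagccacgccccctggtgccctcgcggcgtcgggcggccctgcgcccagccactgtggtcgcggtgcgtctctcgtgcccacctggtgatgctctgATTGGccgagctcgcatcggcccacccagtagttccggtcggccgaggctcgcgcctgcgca

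Among the named genes of the Cry2 knockdown, the first by ratio above the control was Col23a1 (ENSMUSG00000063564, chr11:51289920-51583918), which encodes a transmembrane collagen. It had 109 CPM in Cry2 knockdown cells, 10.1 CPM in Cry1 knockdown cells and 8.15 CPM in control cells, which is 13.4 times the control (95% counting interval 9.86 to 18.7), on 578 and 44 counts. Myl2 (ENSMUSG00000013936, chr5:122100951-122113472), the regulatory light chain of slow and cardiac muscle, had 26.8 CPM in Cry2 knockdown cells, 9.01 CPM in Cry1 knockdown cells and 3.33 CPM in control cells. It stood at 8.05 times the control (95% counting interval 4.92 to 14) in the Cry2 knockdown and at 2.7 times the control (95% counting interval 1.55 to 4.91) in the Cry1 knockdown, while the slow heavy chain Myh7 was lower in the Cry2 knockdown, as given above. Mylk4, a myosin light chain kinase family gene, had 19.7 CPM in Cry2 knockdown cells, 50.9 CPM in Cry1 knockdown cells and 61.5 CPM in control cells, with 0.320 times the control (95% counting interval 0.254 to 0.400) in the Cry2 knockdown.

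The other named genes high in the Cry2 knockdown had varied roles. Padi2, which turns arginine residues into citrulline, had 46.1 CPM in Cry2 knockdown cells, 10.2 CPM in Cry1 knockdown cells and 8.89 CPM in control cells. Efnb1, the membrane-bound ligand ephrin-B1, had 65.2 CPM in Cry2 knockdown cells, 26.7 CPM in Cry1 knockdown cells and 17.6 CPM in control cells. Fgfrl1, a fibroblast growth factor receptor without a kinase domain, had 261 CPM in Cry2 knockdown cells, 78.6 CPM in Cry1 knockdown cells and 103 CPM in control cells, with 2.53 times the control (95% counting interval 2.29 to 2.8) on 1383 and 558 counts. In these genes the Cry2 knockdown was the highest library. Rxfp1, the relaxin receptor, had 11.2 CPM in Cry2 knockdown cells, 6.53 CPM in Cry1 knockdown cells and 2.04 CPM in control cells, with both knockdowns above the control. Cpa4, a secreted carboxypeptidase gene, had 14.4 CPM in Cry2 knockdown cells, 0.706 CPM in Cry1 knockdown cells and 2.78 CPM in control cells. Its Cry1 knockdown value is 4 counts. Pfn2, an actin-binding profilin, had 18.5 CPM in Cry2 knockdown cells, 7.95 CPM in Cry1 knockdown cells and 5.37 CPM in control cells. Fbl, which encodes the nucleolar methyltransferase fibrillarin, had 42.3 CPM in Cry2 knockdown cells, 47.1 CPM in Cry1 knockdown cells and 14.3 CPM in control cells, again with both knockdowns above the control.

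**Figure D3:**
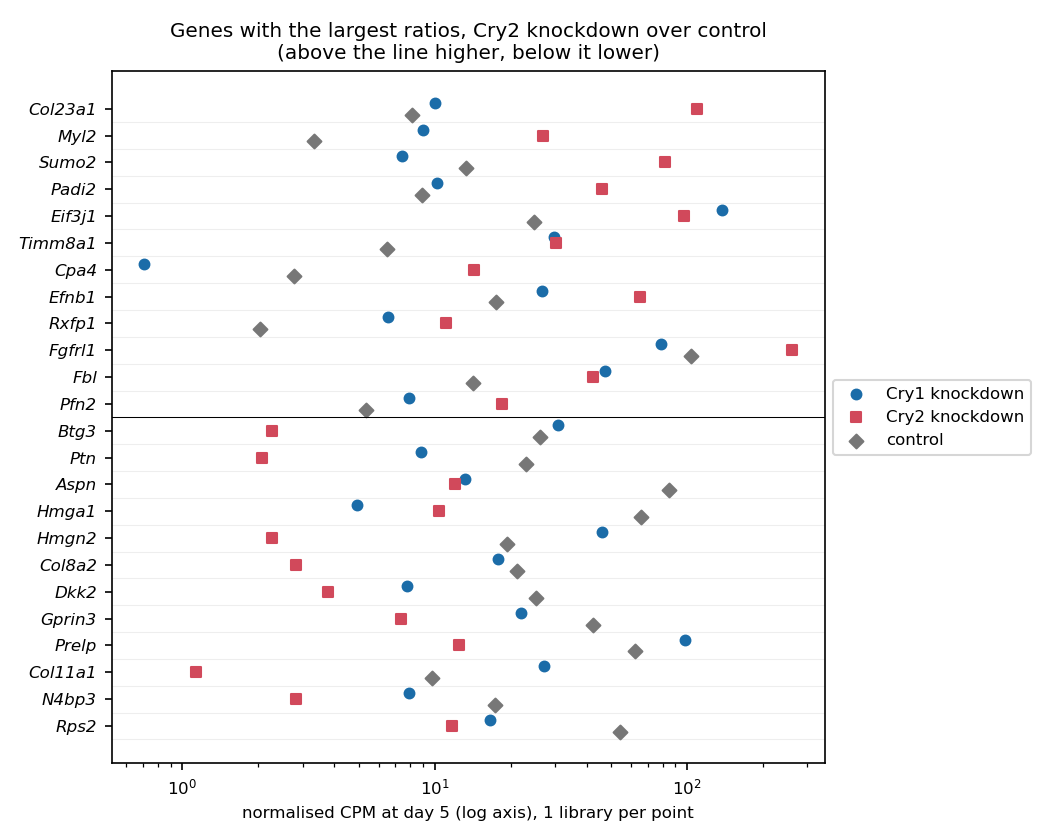
Normalised CPM (log axis) in the 3 day 5 libraries of the 12 named genes above the control (upper block) and the 12 below it (lower block) in the Cry2 knockdown, 1 library per point. Genes were ranked by the bound of the counting interval nearest to 1. Col23a1, Padi2 and Fgfrl1 were highest in the Cry2 knockdown, while Aspn, Hmga1 and Dkk2 lie below the control in both knockdowns.

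Wnt genes stood on both sides of the control. The list had 13 measured members and medians of -0.39 in the Cry1 knockdown and 0.14 in the Cry2 knockdown. Among the ligands, Wnt10a had 57.1 CPM in Cry2 knockdown cells, 11.5 CPM in Cry1 knockdown cells and 22.6 CPM in control cells, and Wnt4 had 21.4 CPM in Cry2 knockdown cells, 9.36 CPM in Cry1 knockdown cells and 8.52 CPM in control cells. Their ratios in the Cry2 knockdown were 2.53 (2.04 to 3.14) for Wnt10a and 2.51 (1.76 to 3.61) for Wnt4. Sfrp2, a secreted Wnt-binding protein, had 59.3 CPM in Cry2 knockdown cells, 20.8 CPM in Cry1 knockdown cells and 27.4 CPM in control cells, with 2.17 times the control (95% counting interval 1.78 to 2.65) in the Cry2 knockdown. Axin2, a common Wnt target gene, had 11.5 CPM in Cry2 knockdown cells, 3.35 CPM in Cry1 knockdown cells and 5.74 CPM in control cells, just under 2-fold on the log2 scale used (0.98). Dkk2, a secreted modulator of the Wnt co-receptor, was lower in both knockdowns, with 3.78 CPM in Cry2 knockdown cells, 7.77 CPM in Cry1 knockdown cells and 25.2 CPM in control cells. For Wnt10a the control lay between the knockdowns, with 0.508 times the control (95% counting interval 0.370 to 0.692) in the Cry1 knockdown.

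Collagens were lower in the Cry2 knockdown in 14 of 18 measured genes, with a median log2 ratio of -0.27. Col11a1 and Col15a1 were lower by 2-fold and Col23a1 was higher, against 1.45% and 0.942% of all measured genes. In the Cry1 knockdown 12 of the 18 were above the control, with a median of 0.17. Col11a1 (ENSMUSG00000027966, chr3:114030540-114220718), a minor fibrillar collagen, had 1.13 CPM in Cry2 knockdown cells, 27.2 CPM in Cry1 knockdown cells and 9.81 CPM in control cells, on 6, 154 and 53 counts. Its ratio was 0.116 (0.0406 to 0.269) in the Cry2 knockdown and 2.77 (2.02 to 3.86) in the Cry1 knockdown, so the control lay between them. Col1a1, the main chain of type I collagen, had 2573 CPM in Cry2 knockdown cells, 5398 CPM in Cry1 knockdown cells and 3099 CPM in control cells, and Col3a1, of type III collagen, had 6806 CPM in Cry2 knockdown cells, 9926 CPM in Cry1 knockdown cells and 11407 CPM in control cells. The ratios in the Cry2 knockdown were 0.830 for Col1a1 and 0.597 for Col3a1, and in the Cry1 knockdown 1.74 and 0.870. The basement membrane chains Col4a1 and Col4a2 had ratios of 0.579 and 0.689 in the Cry2 knockdown, against 0.955 and 1.22 in the Cry1 knockdown. Col6a3, of the microfibrillar type VI collagen, was the lowest of the list in the Cry1 knockdown, at 0.545 (0.528 to 0.562). Summed over the list, collagen RNA was 22266 CPM in Cry2 knockdown cells, 30370.0 CPM in Cry1 knockdown cells and 28198 CPM in control cells. The 3 fibroblast markers above 0 were lower in the Cry2 knockdown as well, with Pdgfra at 9.07 CPM against 19.1 CPM in control cells, Dpt at 54.4 against 121 CPM and Col14a1 at 2.08 against 3.52 CPM, and their part in the collagen values was not tested. Col8a2, a short-chain collagen outside that list, had 2.83 CPM in Cry2 knockdown cells, 17.8 CPM in Cry1 knockdown cells and 21.3 CPM in control cells.

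Other secreted proteins were low in the Cry2 knockdown. Ptn (ENSMUSG00000029838, chr6:36714929-36810220), which encodes the heparin-binding growth factor pleiotrophin, had 2.08 CPM in Cry2 knockdown cells, 8.83 CPM in Cry1 knockdown cells and 23 CPM in control cells, with 0.0905 times the control (95% counting interval 0.0441 to 0.168). Prelp, a leucine-rich matrix protein, had 12.5 CPM in Cry2 knockdown cells, 98.2 CPM in Cry1 knockdown cells and 62 CPM in control cells. It was lower in the Cry2 knockdown, at 0.201 (0.152 to 0.263), and higher in the Cry1 knockdown, at 1.58 (1.38 to 1.82). Spp1, which encodes osteopontin, had 191 CPM in Cry2 knockdown cells, 563 CPM in Cry1 knockdown cells and 496 CPM in control cells, while the osteoblast markers Sp7, Bglap and Ibsp had 0 to 2 counts in each library. Hgf, the ligand of the MET receptor that activates satellite cells, had 10.6 CPM in Cry2 knockdown cells, 15.4 CPM in Cry1 knockdown cells and 28.9 CPM in control cells, and Fgf7 had 3.02 CPM in Cry2 knockdown cells, 8.65 CPM in Cry1 knockdown cells and 8.33 CPM in control cells. Bmp4, a ligand of the TGF-beta superfamily, had 5.86 CPM in Cry2 knockdown cells, 10.2 CPM in Cry1 knockdown cells and 21.8 CPM in control cells, lower in both knockdowns. Of the 19 measured genes of muscle secreted factors and receptors, 4 were lower by 2-fold in the Cry2 knockdown and 1 was higher, Fgf21, against 1.45% and 0.942% of all measured genes. Pdgfra, a receptor of fibroblasts and their precursors, was among those lower, with 9.07 CPM in Cry2 knockdown cells, 22.8 CPM in Cry1 knockdown cells and 19.1 CPM in control cells, and Erfe, which encodes erythroferrone, was the other, with 6.8 CPM in Cry2 knockdown cells, 7.59 CPM in Cry1 knockdown cells and 15.4 CPM in control cells. The intracellular genes Gprin3 and N4bp3 had ratios of 0.173 (0.120 to 0.244) and 0.163 (0.0877 to 0.283).

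Immediate early genes, which growth factors and contraction induce within minutes, included 4 genes lower by 2-fold in the Cry2 knockdown among 21 measured, with none higher, against 1.45% lower and 0.942% higher among all measured genes. Maff had 8.5 CPM in Cry2 knockdown cells, 16.4 CPM in Cry1 knockdown cells and 23.7 CPM in control cells, Egr3 had 10.4 CPM in Cry2 knockdown cells, 12.7 CPM in Cry1 knockdown cells and 24.6 CPM in control cells, and Dusp6, a phosphatase of ERK, had 15.5 CPM in Cry2 knockdown cells, 23.7 CPM in Cry1 knockdown cells and 33.1 CPM in control cells. Egr2 was the other, at 0.456 (0.272 to 0.742). In the Cry1 knockdown none of the list was past 2-fold, against 1.01% higher and 1.09% lower among all measured genes. Egr3 was there at 0.516 (0.382 to 0.693). The list medians were -0.11 in the Cry2 knockdown and -0.07 in the Cry1 knockdown. Cebpa, a transcription factor of fat and myeloid cells, had 1.89 CPM in Cry2 knockdown cells, 7.42 CPM in Cry1 knockdown cells and 11.5 CPM in control cells, with the adipocyte markers near 0 as given above. Tubb3 and Stmn4, genes of neuronal microtubules, were above 2-fold in the Cry2 knockdown, at 2.34 (2.0 to 2.75) and 2.26 (1.52 to 3.4). The neuron and Schwann cell list had 6 measured genes, and 4 lay above the control there and 2 below it (median 0.37). Higher by 2-fold were 2 of the 6, against 0.942% of all measured genes. In the Cry1 knockdown 1 of the 6 was lower by 2-fold and none higher, against 1.09% and 1.01% of all measured genes. Rbfox3, Snap25 and Sox10 had 0 or 1 count in each library.

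Clock genes other than the targeted pair stayed mostly within 2-fold, as did most of all measured genes. Among 13 measured repressors and outputs, the targeted gene was the one lower by 2-fold in each knockdown. Of all measured genes 1.09% were that much lower in the Cry1 knockdown and 1.45% in the Cry2 knockdown. Ciart, a repressor that acts with PER and CRY, was the one higher, in the Cry2 knockdown, against 0.942% of all measured genes. Ciart had 14.6 CPM in Cry2 knockdown cells, 10.9 CPM in Cry1 knockdown cells and 5.74 CPM in control cells. Its ratios were 2.54 (1.65 to 3.98) in the Cry2 knockdown and 1.91 (1.22 to 3.04) in the Cry1 knockdown. Per2 had 38 CPM in Cry1 knockdown cells, 19.8 CPM in Cry2 knockdown cells and 19.3 CPM in control cells, with 1.97 times the control (95% counting interval 1.55 to 2.52) in the Cry1 knockdown and a ratio of 1.03 (0.778 to 1.36) in the Cry2 knockdown. Per1 had 49.1 CPM in Cry1 knockdown cells, 34.6 CPM in Cry2 knockdown cells and 38.1 CPM in control cells, and Tef, an output transcription factor, had 295 CPM in Cry1 knockdown cells, 225 CPM in Cry2 knockdown cells and 258 CPM in control cells. Nr1d1, the repressor REV-ERB alpha, had 70.1 CPM in Cry1 knockdown cells, 85.4 CPM in Cry2 knockdown cells and 94.2 CPM in control cells, and Dbp, a direct target of CLOCK and BMAL1, had 16.1 CPM in Cry1 knockdown cells, 17.8 CPM in Cry2 knockdown cells and 23.3 CPM in control cells, so both lay below the control in each knockdown. Among the activators, Arntl, which encodes BMAL1, had ratios of 1.32 (1.07 to 1.63) and 1.17 (0.939 to 1.46) in the Cry1 and Cry2 knockdowns. Rora, an activator of Arntl, had 17.5 CPM in Cry1 knockdown cells, 9.26 CPM in Cry2 knockdown cells and 8.7 CPM in control cells, and Prkaa2, a catalytic subunit of AMPK, the kinase that marks cryptochromes for degradation, had 44.5 CPM in Cry1 knockdown cells, 19.8 CPM in Cry2 knockdown cells and 24.4 CPM in control cells. A single collection per day shows no rhythm, and the hour of collection is not given in the labels.

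E-boxes of the clock genes are shown because CLOCK and BMAL1 act through them. Of the 14 genes listed as repressors and outputs, 12 were in the RefSeq promoter table, and 5 of these held the canonical E-box CACGTG, which reads the same on both strands, in the 250 bases before a start. Counted over promoters, 6 of 14 held it, against 6.02% of all 32851 promoters and 8.71% of the 10452 of measured genes. The first base of the E-boxes lay at -116, -58 and -44 in Ciart, at -166 in Per1, at -60 in Cry1 and at -127 in the Tef promoter shown. None was in the 250 bases before the starts of Dbp, Nr1d1 and Cry2, or before the other Per1 start. Windows are those of Ciart (chr3:95882229-95882478, minus strand), Per1 (chr11:69098699-69098948, plus), Cry1 (chr10:85185055-85185304, minus) and Tef (chr15:81802423-81802672, plus), with the E-box in capitals.
Ciart: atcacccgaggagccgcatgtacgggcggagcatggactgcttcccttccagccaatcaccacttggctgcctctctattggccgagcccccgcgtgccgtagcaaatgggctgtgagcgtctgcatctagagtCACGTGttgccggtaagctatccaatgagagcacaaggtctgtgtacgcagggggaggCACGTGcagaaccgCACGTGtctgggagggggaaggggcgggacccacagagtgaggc
Per1: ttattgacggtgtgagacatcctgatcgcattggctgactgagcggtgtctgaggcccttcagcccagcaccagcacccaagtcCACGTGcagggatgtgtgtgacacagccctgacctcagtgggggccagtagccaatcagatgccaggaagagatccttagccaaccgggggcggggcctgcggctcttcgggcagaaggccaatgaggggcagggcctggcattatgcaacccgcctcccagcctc
Cry1: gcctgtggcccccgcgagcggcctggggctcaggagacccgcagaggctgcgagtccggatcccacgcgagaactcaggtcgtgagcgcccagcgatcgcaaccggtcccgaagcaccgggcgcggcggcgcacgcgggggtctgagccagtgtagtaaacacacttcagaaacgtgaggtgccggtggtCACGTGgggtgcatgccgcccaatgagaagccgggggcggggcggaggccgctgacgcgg
Tef: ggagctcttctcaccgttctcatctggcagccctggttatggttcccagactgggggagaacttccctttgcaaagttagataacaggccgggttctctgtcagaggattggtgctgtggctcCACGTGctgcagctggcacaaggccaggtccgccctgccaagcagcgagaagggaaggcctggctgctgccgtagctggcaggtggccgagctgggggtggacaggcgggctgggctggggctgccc
Of the genes with these windows, Ciart alone was past 2-fold in a knockdown that did not target it.

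The amino acid stress response, the genes that ATF4 turns on when amino acids run short or the endoplasmic reticulum is stressed, lay above the control in both knockdowns at day 5. In the Cry1 knockdown 19 of 21 genes were above it (median 0.33), and in the Cry2 knockdown 18 (median 0.37), both ratios resting on the same control. Chac1, which breaks down glutathione, had 226 CPM in Cry1 knockdown cells, 215 CPM in Cry2 knockdown cells and 95.5 CPM in control cells. Ddit3, the transcription factor CHOP, had 136 CPM in Cry1 knockdown cells, 122 CPM in Cry2 knockdown cells and 62.6 CPM in control cells, and Trib3, a pseudokinase induced by it, had 242 CPM in Cry1 knockdown cells, 210.0 CPM in Cry2 knockdown cells and 127 CPM in control cells. Fgf21, a hormone that stressed muscle secretes, had 89.2 CPM in Cry1 knockdown cells, 91.7 CPM in Cry2 knockdown cells and 45.7 CPM in control cells. At day 3, in separate libraries, the medians lay on the other side of the control, at -0.87 in the Cry1 knockdown and -2.06 in the Cry2 knockdown. Chac1 at day 3 had 66.2 CPM in Cry1 knockdown cells, 24.8 CPM in Cry2 knockdown cells and 194 CPM in control cells.

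Other lists are given in brief. Muscle energy metabolism was above it in 18 of 19 genes in the Cry1 knockdown (median 0.22) and in 11 in the Cry2 knockdown (median 0.03). Ckmt2, the sarcomeric mitochondrial creatine kinase, was past 2-fold in the Cry2 knockdown, with 7.56 CPM in Cry2 knockdown cells, 5.47 CPM in Cry1 knockdown cells and 2.78 CPM in control cells. Glycolysis and hypoxia genes had medians of 0.16 and 0.30 in the Cry1 and Cry2 knockdowns. DNA replication genes had medians of 0.33 and 0.11, and Mcm5, a subunit of the replicative helicase, had 16.6 CPM in Cry1 knockdown cells, 7.94 CPM in Cry2 knockdown cells and 5.0 CPM in control cells. Troponins and tropomyosins were above the control in all 13 measured genes in the Cry1 knockdown (median 0.12) and in 11 in the Cry2 knockdown (median 0.17), none past 2-fold. Myogenic transcription factors had medians of -0.02 and -0.22, and the gene past 2-fold in each knockdown was Hmga2, a chromatin factor of proliferating cells, with 6.71 CPM in Cry1 knockdown cells, 4.72 CPM in Cry2 knockdown cells and 18.9 CPM in control cells. Myog, which encodes myogenin, had 998, 716 and 958 CPM in Cry1 knockdown cells, Cry2 knockdown cells and control cells. Ribosomal protein genes were below the control in 26 of 28 in the Cry2 knockdown (median -0.21) and above it in 23 in the Cry1 knockdown (median 0.13). Grb10, an imprinted adaptor of the insulin receptor, had 12.2 CPM in Cry1 knockdown cells, 3.21 CPM in Cry2 knockdown cells and 3.33 CPM in control cells, and Peg10, another imprinted gene, had 35 CPM in Cry1 knockdown cells, 13.4 CPM in Cry2 knockdown cells and 18 CPM in control cells. The lists of myoblast fusion and adhesion, of the acetylcholine receptor and neuromuscular synapse, of oxidative phosphorylation and of endoplasmic reticulum chaperones had no measured member past 2-fold in either knockdown. They had 17, 12, 24 and 20 measured members, and at the shares of all measured genes lists of this size would hold few or none. Chrne, the adult acetylcholine receptor subunit, missed the filter of 5 CPM, with 2.65 CPM in Cry2 knockdown cells, 3.88 CPM in Cry1 knockdown cells and 7.78 CPM in control cells.

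**Figure D4:**
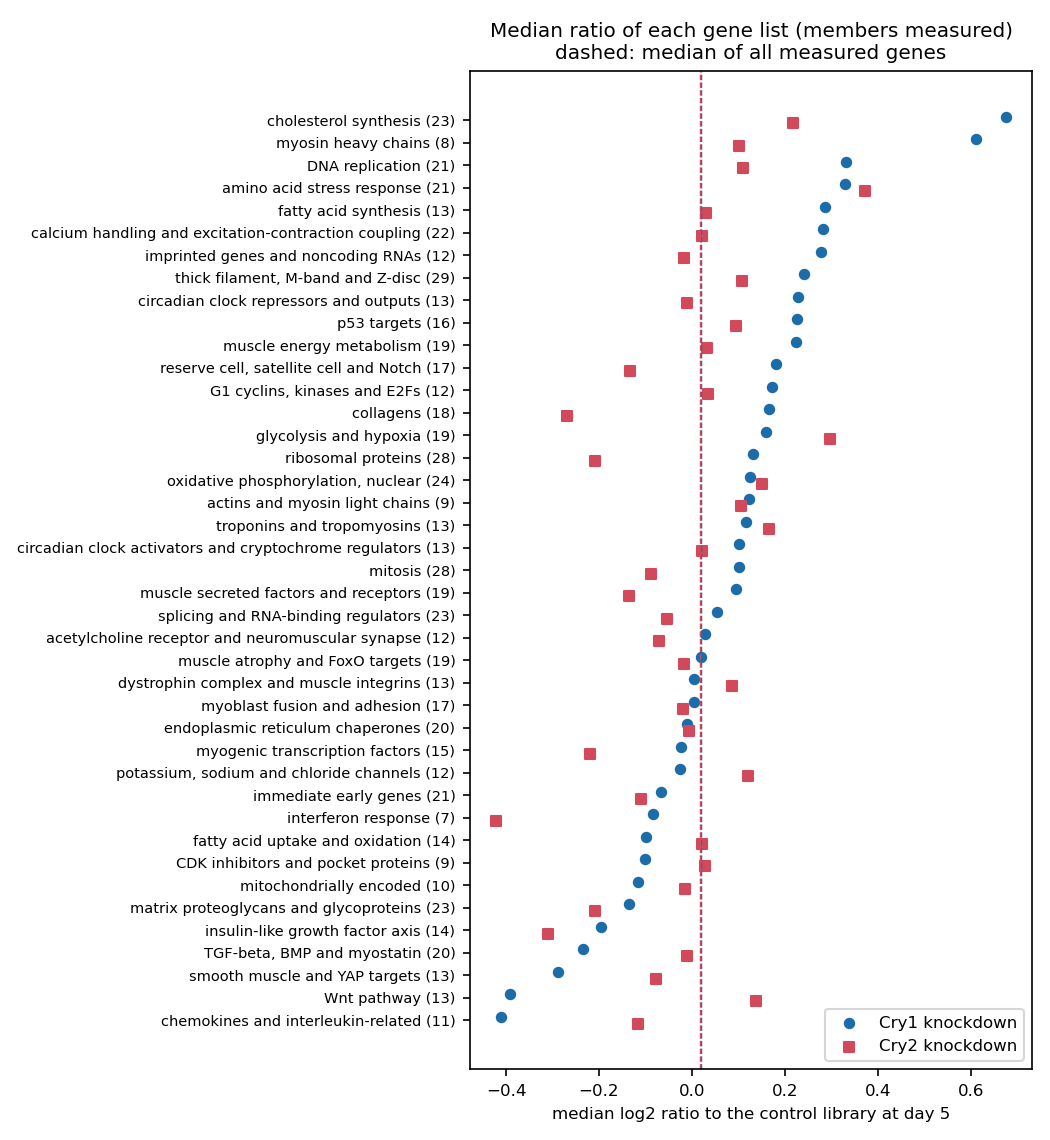
Median log2 ratio to the control library of each gene list with at least 7 measured members, for the Cry1 knockdown (circles) and the Cry2 knockdown (squares); the number of members is in brackets, and dashed lines mark the median of all measured genes. Cholesterol synthesis lies highest for the Cry1 knockdown, at 0.68, and the collagens lie at 0.17 and -0.27 for the Cry1 and Cry2 knockdowns.

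Several of the largest ratios fell on genes whose sequence recurs elsewhere, and their counts can be split between copies. A gene was counted as such where at least 20% of the 50-base words of its longest transcript were found in the longest transcript of another gene. This held for 11.4% of all measured genes, for 30.8% of those 2-fold higher and 19.8% of those 2-fold lower in the Cry1 knockdown, and for 27.0% and 22.7% in the Cry2 knockdown. Hmga1 shares 69.1% of its words, Rps2 71.3%, Eif3j1 54.8%, Timm8a1 41%, Sumo2 30.2%, Carnmt1 23.6%, Btg3 22.8% and Hmgn2 22.5%, so their values are uncertain. Hmga1, a chromatin protein, had 4.94 CPM in Cry1 knockdown cells, 10.4 CPM in Cry2 knockdown cells and 65.5 CPM in control cells. Sumo2, a ubiquitin-like modifier, had 82.2 CPM in Cry2 knockdown cells, 7.42 CPM in Cry1 knockdown cells and 13.3 CPM in control cells, and Btg3, an antiproliferative gene, had 2.27 CPM in Cry2 knockdown cells, 30.9 CPM in Cry1 knockdown cells and 26.1 CPM in control cells. Eif3j1, a translation initiation factor subunit, had 137 CPM in Cry1 knockdown cells, 97.3 CPM in Cry2 knockdown cells and 24.8 CPM in control cells, and Timm8a1, a chaperone of the mitochondrial intermembrane space, had 29.8 CPM in Cry1 knockdown cells, 30.2 CPM in Cry2 knockdown cells and 6.48 CPM in control cells. Hmgn2, a nucleosome-binding protein, had 2.27 CPM in Cry2 knockdown cells, 46.1 CPM in Cry1 knockdown cells and 19.4 CPM in control cells, and at day 3 it had 42.1, 20.6 and 2.02 CPM in Cry2 knockdown cells, Cry1 knockdown cells and control cells. Igfn1, Dmd, Pvalb, Igf1, Axl, Aspn, Col23a1, Myl2 and Col11a1 share no words.

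The libraries of days 3 and 0, which did not enter the choice of day 5 genes, gave another reading of these genes, against the control of their own day. Of the 107 genes 2-fold higher in the Cry1 knockdown at day 5, 38 (35.5%) were also 2-fold higher at day 3 and 34 (31.8%) at day 0, against 1.53% and 2.31% of all measured genes at those days, and 19 were so at both. Of the 116 lower genes, 39 (33.6%) were also lower at day 3 and 28 (24.1%) at day 0, against 1.38% and 1.17% of all. In the Cry2 knockdown 24 (24.0%) of the 100 higher genes were higher at day 3 and 10 (10.0%) at day 0, against 0.800% and 0.998%. Of its 154 lower genes, 48 (31.2%) were lower at day 3 and 17 (11.0%) at day 0, against 1.89% and 0.876%. At neither earlier day were 54 and 66 of the higher and lower genes past 2-fold the same way in the Cry1 knockdown. For the Cry2 knockdown these numbers were 70 and 101. These shares apply no level filter at the earlier day, and for Pvalb, Dmd, Fgf13 and Ppp1r3a the day 0 ratio in the Cry1 knockdown rests on 1 count against 0 in control cells. Among genes with a mean of at least 5 CPM at the earlier day too, 22 of 81 (27.2%) of the higher genes of the Cry1 knockdown were also higher at day 3 and 9 of 61 (14.8%) at day 0, against 1.11% and 0.951% of all such genes. Its lower genes gave 36 of 96 (37.5%) and 19 of 86 (22.1%), against 1.22% and 0.841%. For the Cry2 knockdown the higher genes gave 20 of 85 (23.5%) and 6 of 62 (9.68%), against 0.667% and 0.371%. The lower genes gave 28 of 116 (24.1%) and 7 of 105 (6.67%), against 1.53% and 0.340%. Each filter is a mean over the 3 libraries of its day, so a gene can pass through the 1 library where it is high. The shares of the day 5 genes and of all genes are therefore not on equal terms. The days of one genotype may come from one culture or clone, which the labels do not say, so a difference between cultures that lasts through the days cannot be told apart from the knockdown.

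Single genes show both kinds. Igfn1 had 7.86, 75.8 and 198 CPM at days 0, 3 and 5 in the Cry1 knockdown, against 0.587, 10.2 and 26.1 CPM in control cells. Axl was low in the Cry1 knockdown at each day, with 182, 111 and 117 CPM against 588, 344 and 377 CPM in control cells. Igf1 was higher at day 5 than at day 0 in all 3 genotypes, with 2.96, 11.1 and 18.2 CPM in Cry1 knockdown cells and 6.01, 40 and 79.6 CPM in control cells. Col23a1 had 0.646, 45.3 and 109 CPM in Cry2 knockdown cells and 0.587, 5.71 and 8.15 CPM in control cells. Its day 0 values are 4 counts in each library, with a ratio of 1.10 (0.205 to 5.91), too few to tell whether the libraries differed then. Ccn2, past 2-fold at day 5 in both knockdowns, had log2 ratios at day 3 of 0.63 in the Cry1 knockdown and 0.14 in the Cry2 knockdown. Cilp in the Cry2 knockdown was likewise past 2-fold at day 5 only, with a log2 ratio of -1.90 there and -0.13 at day 3, while in the Cry1 knockdown it was -2.00 at day 5 and -1.87 at day 3.

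**Figure D5:**
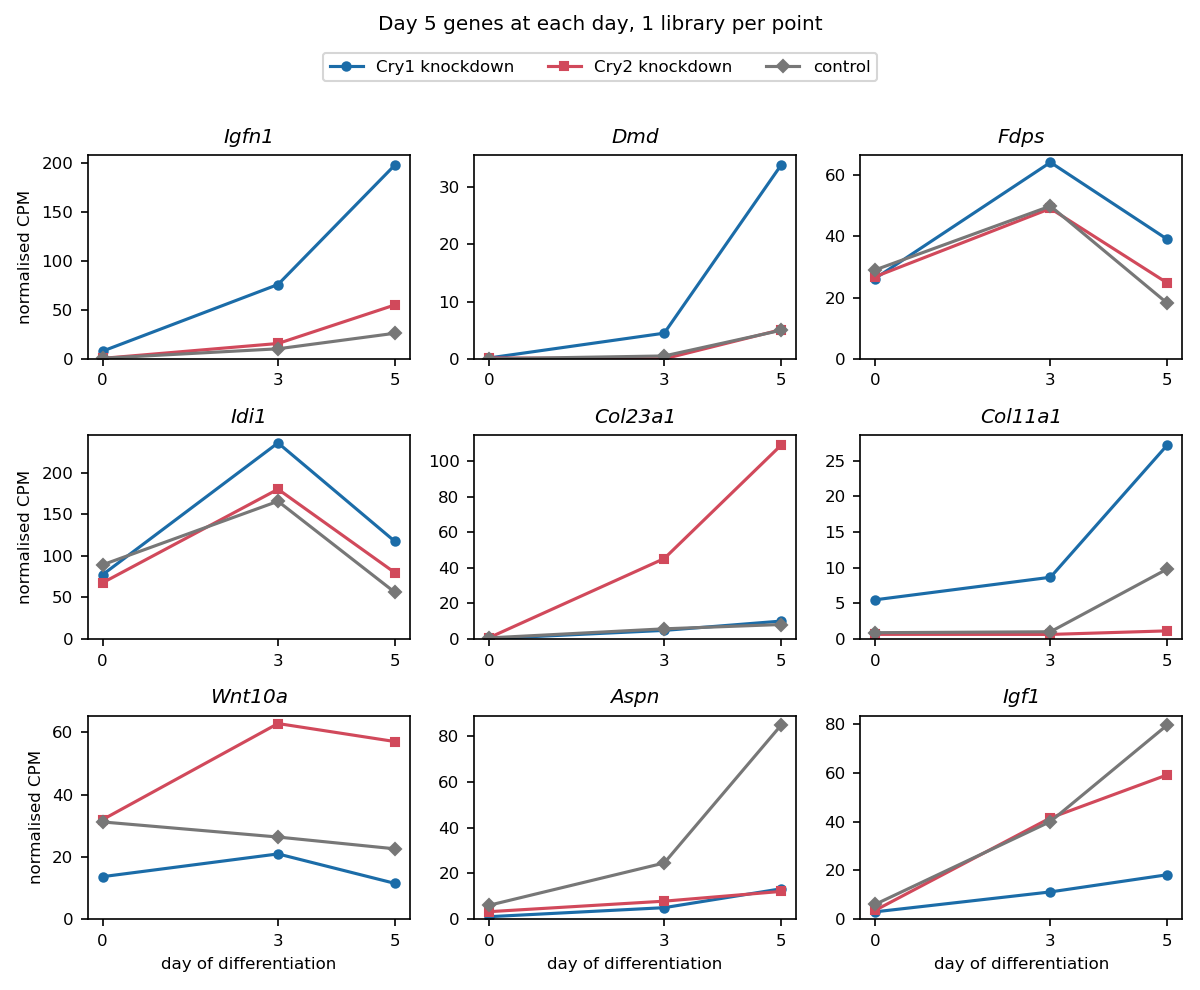
Normalised CPM (y axis, from 0) of 9 genes at days 0, 3 and 5 in the Cry1 knockdown, the Cry2 knockdown and the control, 1 library per point. Igfn1 and Dmd climb furthest in the Cry1 knockdown, Col23a1 in the Cry2 knockdown, and Aspn in the control, where it reached 84.8 CPM at day 5.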

How the data were processed

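The files used here are raw read counts per gene as deposited by the authors, 1 library per genotype and day. Per the labels, base calls were made with CASAVA 1.8, reads aligned with HISAT2 2.0.2 to mm10 and counted with featureCounts 1.4.6 of Subread; the kit keeps no strand, and settings for reads that match several loci are not given in the sources used here. Of 47728 gene IDs, 47309 matched a GENCODE annotation of mm10. Groups follow the sample titles.

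TMM factors came from edgeR 4.0.16 (R 4.3.3) over all 9 libraries and the 13094 genes kept by filterByExpr, and CPM values use the counts of those genes times the factor. No model was fitted, because each genotype has 1 library at day 5. Log2 ratios use a prior count of 1, a call is a ratio of 2-fold or more with a mean of at least 5 CPM, and counting intervals are exact (Clopper-Pearson, 95%). Depth was 4731020 to 6412279 counts per library. The ratio code was tested on simulated counts. Python 3.11.15, numpy 2.4.6, pandas 2.3.3, scipy 1.17.1 and matplotlib 3.10.9 did the rest.

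Named genes were the targeted and title genes, the 12 largest ratios per knockdown and direction by the bound of the counting interval nearest to 1 (without unnamed models, pseudogenes and mitochondrially encoded genes), and up to 5 members of each of 45 gene lists with the largest ratios, and further list members, picked after their values were seen, are given beside them. The libraries, genes and lists were chosen with earlier results of these data known. The listed gene Ca9 was not matched by symbol, and a few listed genes are counted in their lists but not reported here by name. Alternatives were RLE factors, TMM over the 3 day 5 libraries or over all genes, library totals alone, filters of 1 CPM, 10 CPM or none, a prior count of 5, calls at 1.5-fold or 3-fold or with a counting interval without 1, no unnamed models, pseudogenes and mitochondrially encoded genes, no genes with 20% shared words, and the other knockdown as denominator. TMM over all genes, the shared-word filter and a filter of 5 CPM at the earlier day were chosen after seeing the data.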

Additional observations from a re-analysis of the deposited data

Results flagged for a closer look

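Of the named genes past 2-fold at day 5, 10 were past 2-fold the other way at an earlier day in the same knockdown, in 14 comparisons. The difference between days was not tested, since each day has 1 library per genotype, and no cause was tested. In the Cry1 knockdown Chac1, of the amino acid stress response, had a log2 ratio of 1.24 at day 5 and -1.55 at day 3. Myoz1 had 1.28 at day 5 and -1.58 at day 0, where it had 0 counts in the Cry1 knockdown and 2 in the control, so that both are under the floor of 3 counts and the day 0 value is set by the prior count. Cpa4 had -1.74 at day 5 and 1.31 at day 3, the day 3 value on 9 counts against 3, and N4bp3 -1.11 at day 5 and 1.24 at day 3. Rps2 had -1.70 at day 5 and 1.30 at day 3, and Gapdh, a glycolytic enzyme, -1.59 at day 5, 4.63 at day 3 and 1.89 at day 0. Rps2 shares 71.3% and Gapdh 27.8% of their 50-base words with other genes.

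In the Cry2 knockdown Chac1 had a log2 ratio of 1.17 at day 5 and -2.96 at day 3, and Fgf21 had 1.00 at day 5 and -3.15 at day 3. Sfrp2 had 1.11 at day 5 and -3.42 at day 0, on 1 count against 22. Eif3j1 had 1.96 at day 5 and -1.12 at day 0, and Rps2 had -2.19 at day 5 and 1.27 at day 0. Hmgn2 had -3.00 at day 5, 4.26 at day 3 and 2.51 at day 0, and it shares 22.5% of its words.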

How the results depend on the processing

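No paired analysis was possible because the day 5 comparison has 1 library per genotype and no replicate numbers, and the other days are times, not replicates. Scaling by RLE, by TMM over the 3 day 5 libraries or over all genes, or by library totals moved the median of all measured genes by less than 0.1 on the log2 scale. Under those scalings, and with a prior count of 5, all 216 ratios of named genes stayed within their own counting interval. The 4 counts of genes past 2-fold also stayed within 1.5 times of those given when a counting interval without 1 was asked for, and without multi-copy genes or without unnamed models, pseudogenes and mitochondrially encoded genes.

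The counts moved with the filter and the fold, in the order Cry1 knockdown higher and lower, Cry2 knockdown higher and lower. A filter of 1 CPM gave 376, 340, 341 and 359 genes, a filter of 10 CPM gave 62, 77, 64 and 92, and no filter gave 1229, 2164, 2405 and 994. Counted per list and knockdown, 12 list medians moved by more than 0.1 on the log2 scale with the 1 CPM filter, and 76 did not. With the 10 CPM filter 5 moved so, and with no filter 10. Without genes of 20% shared words 3 moved, and with a prior count of 5 there was 1. As examples, with the 1 CPM filter the median of the Wnt list in the Cry1 knockdown was -0.06 and that of the collagens 0.28. A threshold of 1.5-fold gave 428, 483, 372 and 536 genes, and of 3-fold 41, 35, 28 and 47. With the other knockdown as denominator 175 genes were higher in the Cry1 knockdown and 154 higher in the Cry2 knockdown.

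The share of day 5 genes past the threshold the same way at an earlier day also moved. At 1.5-fold, Cry1 knockdown genes gave 19.4% (day 3) and 18.7% (day 0) of the higher and 13.0% and 12.0% of the lower, and Cry2 knockdown genes gave 9.95% (day 3) of the higher and 11.2% and 5.78% of the lower. At 3-fold, day 3 gave 48.8% and 51.4% of the higher and lower genes of the Cry1 knockdown and 35.7% and 40.4% of those of the Cry2 knockdown, and day 0 gave 21.4% of the higher genes of the Cry2 knockdown. With no filter the Cry1 knockdown gave 20.6% and 23.0% of the higher and 20.7% and 9.06% of the lower at days 3 and 0, and the Cry2 knockdown 18.0% of the lower at day 3. With a mean of at least 5 CPM asked for at the earlier day too, 14.8% of the higher genes of the Cry1 knockdown were so at day 0, and the other 7 shares stayed within the binomial interval of those first given.

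Against the Cry2 knockdown in place of the control, 12 log2 ratios of named genes past 2-fold in the Cry1 knockdown changed sign. These were -0.019 for Timm8a1, 0.13 for Aspn, -1.56 for Myl2, -0.75 for Rxfp1, 1.99 for Ptn, 1.00 for Dkk2, 1.43 for N4bp3, 0.50 for Rps2, 0.49 for Hmga2, 0.069 for Ccn2, 0.79 for Bmp4 and 0.15 for Erfe. Against the Cry1 knockdown, 9 of those past 2-fold in the Cry2 knockdown did, at -1.84 for Igfn1, -0.49 for Eif3j1, 1.04 for Hmga1, 0.10 for Cilp, 0.21 for Thbd, 0.20 for Irs2, -0.15 for Fbl, -0.074 for Chac1 and -0.14 for Mt2. In these genes both knockdowns lay on one side of the shared control. Depth limits genes of low level: 2 counts stand behind Tmem176b in the Cry2 knockdown, and ratios there span an order of magnitude or more.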
